A study of Homo sapiens with 12 samples.

Results

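The genes of the proteasome were followed across 12 arrays of K562, an established human leukaemia cell line, in which the level of CXXC5 had been raised or lowered. Members were all genes whose symbol starts with PSMA, PSMB, PSMC, PSMD, PSME, PSMF or PSMG, without PSMB8 and PSMB9, and 39 of the 11963 genes measured with a named probe set met this rule. They comprised 6 alpha ring genes (PSMA1 to PSMA5 and PSMA7), 8 beta ring genes (PSMB1 to PSMB7 and PSMB10), 5 genes of the ATPase ring (PSMC1, PSMC2, PSMC3, PSMC4 and PSMC6), 3 other genes of the base (PSMD1, PSMD2 and PSMD4) and 6 lid genes (PSMD3, PSMD6, PSMD8, PSMD11, PSMD12 and PSMD14). A further 4 were activators or the inhibitor of the core (PSME1, PSME3, PSME4 and PSMF1) and 5 were assembly factors (PSMG1, PSMG2, PSMD5, PSMD9 and PSMD10). The rule also took PSMC3IP, a cofactor of meiotic recombination, and PSME3IP1, a partner of PSME3; these 2 were placed in no structural class. For 9 genes of these classes, among them PSMA6, PSMC5, PSMD7, PSMD13 and PSME2, no probe set was used here.

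The proteasome degrades proteins that carry ubiquitin. Its barrel-shaped core is built of outer alpha rings and inner beta rings, and the beta rings hold the catalytic sites. A regulatory particle, made of a base with a ring of ATPases and a lid that removes ubiquitin, caps the core, unfolds the substrate and feeds it in. In cells exposed to interferon, the inducible subunits PSMB8, PSMB9 and PSMB10 replace the constitutive catalytic subunits PSMB5, PSMB6 and PSMB7, and the activator formed by PSME1 and PSME2 docks on the core, which favours the production of peptides for antigen presentation. CXXC5 is a zinc finger protein that binds CpG-rich DNA and is known to inhibit Wnt signalling.

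All 4 groups were K562 cells kept without serum and given Wnt3a at 100 ng/ml, with RNA taken after 8 h, and each held 3 arrays. The empty vector group carried pEGFP-C2 and the overexpression group pEGFP-CXXC5, both delivered by nucleofection, a transient transfection in which part of the cells may not take up the plasmid. The scrambled shRNA group and the knockdown group were stably infected with lentivirus, the latter with shRNA against CXXC5 in pLKO.1. A pair of knockdown clones is named in the labels, which do not say which array carried which, nor whether replicates were separate cultures. The p-values therefore rest on the spread between arrays of a group, which may be technical only. The comparison of scrambled shRNA with empty vector is a comparison of controls that differ in vector and delivery, and these cannot be told apart. It shares the empty vector arrays with the overexpression comparison and the scrambled shRNA arrays with the knockdown comparison, so these are not independent of each other.

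No probe set for CXXC5 was used here, and the labels could therefore not be checked against its level. Of 9 erythroid genes typical of K562, 7 were measured, and their mean level on the arrays was between 10.7 and 10.9 log2 in all groups. All 5 fibroblast genes were measured: COL1A1 read 7.57 to 8.12, COL1A2 5.61 to 6.15, DCN 4.92 to 5.9, COL3A1 3.64 to 4.12 and LUM 2.38 to 2.75 log2, with a list mean between 4.97 and 5.29 on every array. Of the 6 lymphoid genes measured, CD3D (10.7 to 11.3) and PTPRC (10.1 to 10.6) were bright on every array. CD3E read 5.74 to 6.42, CD3G 5.28 to 5.99, CD79A 5.23 to 5.72 and MS4A1 4.26 to 4.87. The lymphoid list mean lay between 7.08 and 7.34. Of the epithelial genes, the keratins KRT8, KRT18 and KRT19 (10.7 to 12.3) and EPCAM (11.1 to 11.4) were bright, while CDH1 read 4.42 to 4.96. With bright and dim genes in both, these lists do not by themselves set K562 apart from lymphoid or epithelial cells. In RNA from a whole culture, fewer cells of a type and less RNA per cell cannot be told apart. Scrambled shRNA replicate 3 stood apart from the other 11 arrays in the difference between the 3′ and 5′ probe sets of the GAPDH control, a sign of RNA and labelling quality, with 0.87 log2 against 0.227 to 0.335. For the actin control the difference was 2.57 against 1.95 to 2.27. Results that rest on this array are therefore given with and without it.

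The proteasome genes varied little across the 4 groups. All 39 were measured, with no filter on low values, and their mean levels lay between 8.63 and 13.19 log2. They were bright, with a median level of 11.49 log2 against 7.283 for all genes and a median level percentile of 94.7. Their spread was not compared with that of genes of like level, so the values for all genes below include many dimmer genes. The difference between the highest and the lowest group mean had a median of 0.141 log2 over the members, against 0.247 over all genes, and the largest was 0.542, for the lid gene PSMD11. The spread within groups was also smaller, with a median residual SD of 0.0556 log2 against 0.111 over all genes. In limma's moderated F test of any difference among the 4 groups, 9 of 39 members passed an adjusted p of 0.05, where 33.2% of all genes did. In order of p these were PSME1, PSMF1, PSMB10, PSMC2, PSMD12, PSMD8, PSMD11, PSMC3IP and PSMG1.

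**Figure D1:**
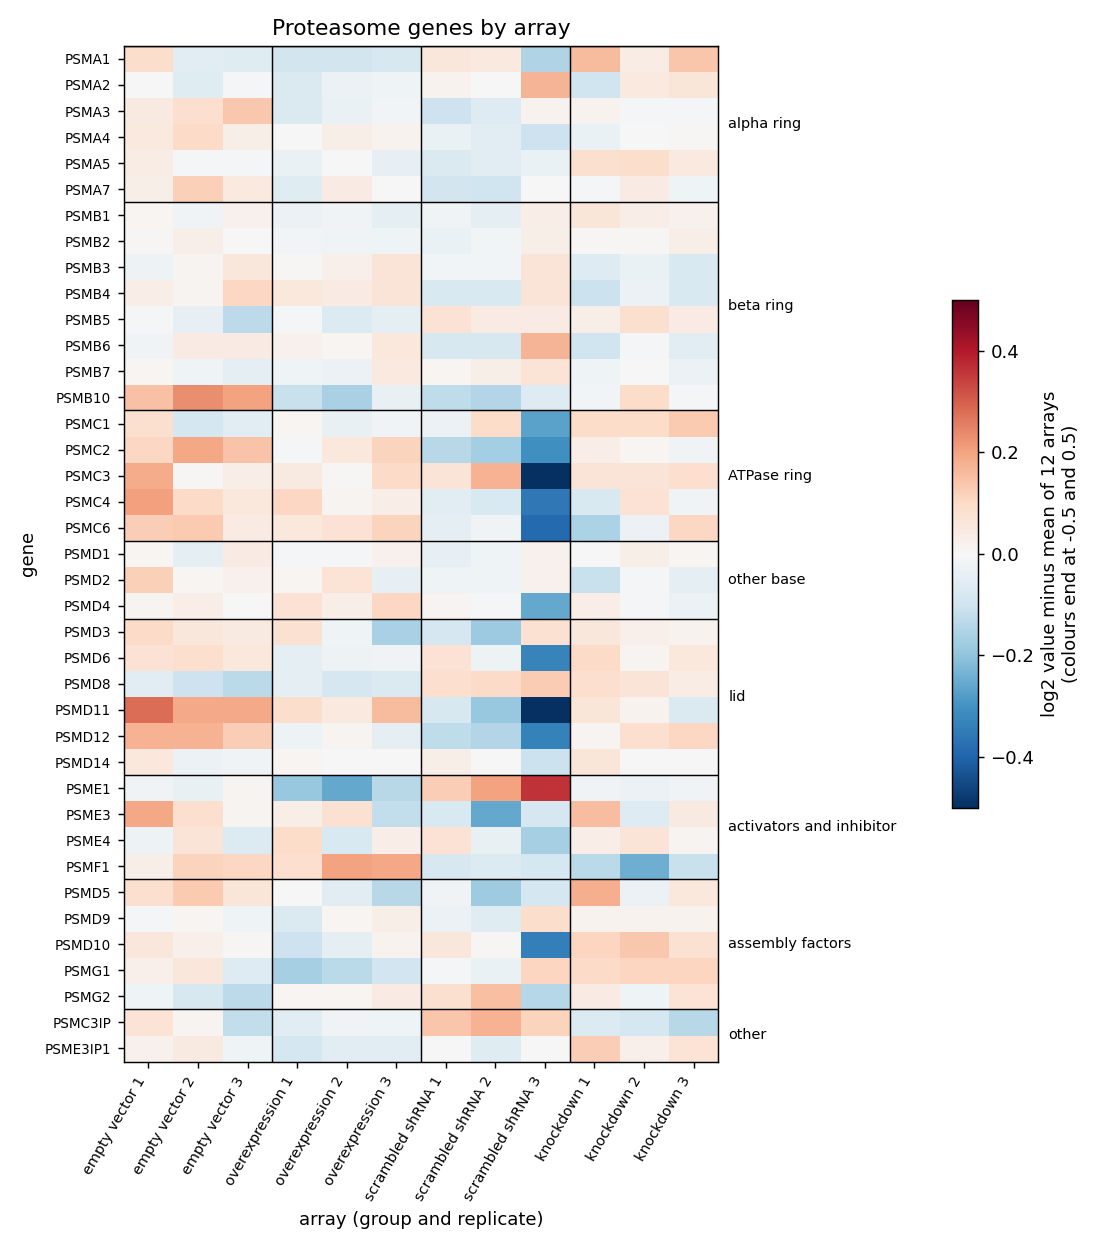
Log2 value of each of the 39 genes on each of the 12 arrays, minus the gene's mean over the 12 arrays, ordered by structural class; red is higher and blue lower, and colours end at -0.5 and 0.5. Most cells are pale, and PSMB10 is reddest on the 3 empty vector arrays. The ATPase ring genes and the lid genes PSMD6, PSMD11, PSMD12 and PSMD14 are bluest on scrambled shRNA replicate 3. The lid genes PSMD3 and PSMD8 are above their means there.

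In the overexpression comparison 1 of 39 members changed, PSMB10, which fell, where 6.98% of all genes were called. Higher calls made up 3.61% of all genes and lower calls 3.37%. Knockdown against scrambled shRNA changed 4 members, where 14.0% of all genes were called. Of these 4, PSMC2 and PSMD12 rose, where 8.79% of all genes were called higher, and PSME1 and PSMC3IP fell, where 5.22% were called lower. Between the controls 8 members differed, where 31.5% of all genes did. PSMD8 and PSME1 were higher in scrambled shRNA, where 16.2% of all genes were called higher, and PSMB10, PSMC2, PSMC4, PSMD11, PSMD12 and PSME3 were lower, where 15.3% were called lower. In this fit, the members' shares were thus at or below those of all genes in each comparison. With overexpression the arrays did not overlap those of the control for 13 of 39 members (33.3%), against 27.9% of all genes. With knockdown this held for 14 members (35.9%, against 32.4%) and between the controls for 18 (46.2%, against 45.7%). A lack of overlap was thus common, and the members were near the shares of all genes. In all, 10 members were called in at least 1 of these comparisons or in the difference of the effects, and 29 were called in none.

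The promoters of the 4 members called in at least 2 of these comparisons are shown here because the genes belong to different classes and can be set beside each other. They are the 250 bases before the RefSeq start in GRCh38.p14, written 5′ to 3′ on the gene's strand, with capitals for matches to the motifs searched. The windows are chr16:67936851-67937100 on the minus strand for PSMB10, chr14:24135944-24136193 on the plus strand for PSME1, chr7:103347393-103347642 on the plus strand for PSMC2 and chr17:67366578-67366827 on the minus strand for PSMD12. The array files name no build, and these coordinates come from the RefSeq table.
PSMB10: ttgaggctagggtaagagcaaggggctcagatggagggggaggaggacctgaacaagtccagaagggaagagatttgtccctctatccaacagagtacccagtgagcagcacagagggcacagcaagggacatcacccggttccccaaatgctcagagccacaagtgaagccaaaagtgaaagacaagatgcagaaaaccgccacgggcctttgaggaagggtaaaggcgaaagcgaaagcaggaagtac
PSME1: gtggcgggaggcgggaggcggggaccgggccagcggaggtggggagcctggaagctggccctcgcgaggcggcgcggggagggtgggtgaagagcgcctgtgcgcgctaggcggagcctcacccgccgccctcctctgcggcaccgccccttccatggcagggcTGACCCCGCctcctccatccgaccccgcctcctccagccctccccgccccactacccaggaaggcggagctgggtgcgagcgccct
PSMC2: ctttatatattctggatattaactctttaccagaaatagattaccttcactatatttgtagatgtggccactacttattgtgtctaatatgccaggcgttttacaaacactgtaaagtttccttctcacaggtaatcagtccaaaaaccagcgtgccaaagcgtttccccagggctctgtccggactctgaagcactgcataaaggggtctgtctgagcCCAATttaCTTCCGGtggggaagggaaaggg
PSMD12: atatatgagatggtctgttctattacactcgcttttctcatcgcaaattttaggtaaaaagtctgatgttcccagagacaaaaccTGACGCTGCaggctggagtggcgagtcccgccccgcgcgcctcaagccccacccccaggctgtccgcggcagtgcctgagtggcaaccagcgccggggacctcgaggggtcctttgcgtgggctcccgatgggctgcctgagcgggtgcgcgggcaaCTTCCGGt

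The motifs searched, on both strands, were TGACNNNGC (the core of the antioxidant response element, the kind of site bound by NFE2L1, a known activator of proteasome genes), the CCAAT box, the ETS site CCGGAAG and the nuclear respiratory factor site GCATGCGC. PSME1 held TGACCCCGC, with its first base 86 bases before the start, and PSMD12 held TGACGCTGC 165 bases before the start and CTTCCGG, the ETS site on the other strand, 8 bases before it. PSMC2 held CCAAT 31 bases and CTTCCGG 23 bases before the start, and PSMB10 held none of the 4 motifs in this window. Matches of different motifs did not overlap in these windows. Windows that also hold the first 50 bases after the start were found for 34 of the 39 members. Of these, 7 had several windows, and a gene was counted where any of its windows matched. TGACNNNGC occurred in 12 of these 34 (35.3%), against 19.4% of 9563 measured genes with a window, and CCGGAAG in 12 of 34 (35.3%) against 17.8%. CCAAT occurred in 18 of 34 (52.9%) against 44.2%, and GCATGCGC in 2 of 34 (5.88%) against 5.28%. By class, CCGGAAG was found for 0 of 10 core genes and 7 of 13 regulatory particle genes with a window, while CCAAT was found for 7 of 10 and 6 of 13. A match is a stretch of letters and does not show that a factor binds there.

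The alpha ring gates the entry to the core. With all arrays, none of its 6 genes passed in any comparison. PSMA3, the first of them by the F test, read 12.26, 12.30 and 12.35 log2 with empty vector, 12.14, 12.18 and 12.20 with overexpression, 12.11, 12.15 and 12.23 with scrambled shRNA and 12.23, 12.21 and 12.21 with knockdown. Its empty vector arrays were the highest 3, and the other groups overlapped. PSMA3 was at -0.13 log2 in the overexpression comparison (adjusted p = 0.197) and PSMA7 at -0.08. In the knockdown comparison PSMA5 was at 0.12 (adjusted p = 0.13) and PSMA1 at 0.13, and between the controls PSMA3 was at -0.14 and PSMA4 at -0.12.

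Of the 8 beta ring genes, PSMB10 was called and the other 7 were not. PSMB10, the inducible counterpart of PSMB7, read 9.61, 9.69 and 9.67 with empty vector, 9.35, 9.30 and 9.42 with overexpression, 9.34, 9.32 and 9.40 with scrambled shRNA and 9.45, 9.55 and 9.45 with knockdown. The empty vector arrays were above all 9 others, and overexpression and scrambled shRNA shared the lowest range, below all knockdown arrays. With overexpression it fell by 0.30 log2 (SE 0.0587, 1.23-fold, adjusted p = 0.00992 by limma), and the call ended when empty vector replicate 2 (adjusted p = 0.0525) or overexpression replicate 2 (0.0508) was left out. Against empty vector, scrambled shRNA was lower by as much, at -0.31 (adjusted p = 0.00229). The knockdown value against scrambled shRNA was 0.13 (adjusted p = 0.157), which did not pass, and the next by p in that comparison, PSMB3, was at -0.07.

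The constitutive catalytic subunits were called in no comparison. PSMB5, which cleaves after hydrophobic residues, read 11.48, 11.45 and 11.36 with empty vector, 11.48, 11.42 and 11.44 with overexpression, 11.56, 11.53 and 11.53 with scrambled shRNA and 11.52, 11.57 and 11.53 with knockdown. Both transfected groups lay within one range, and all 6 lentiviral arrays lay above it. PSMB6, which cleaves after acidic residues, differed by 0.27 log2 between its lowest and highest array, with groups that overlapped. PSMB7, which cleaves after basic residues, differed by 0.12, and its scrambled shRNA arrays lay just above those of knockdown and no lower than those of empty vector. Their differences with overexpression were 0.02 for PSMB5, 0.01 for PSMB6 and 0.02 for PSMB7.

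**Figure D2:**
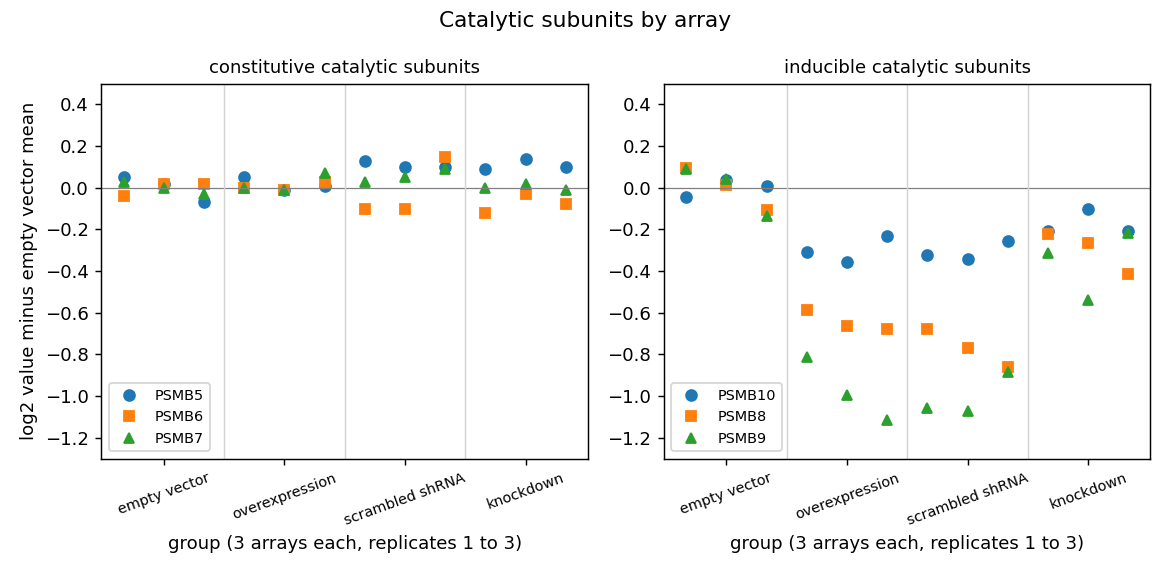
Log2 value of the constitutive (left) and inducible (right) catalytic subunits on each array, minus the gene's mean over the 3 empty vector arrays, with the arrays in their 4 groups. The constitutive genes stay near 0, while PSMB8, PSMB9 and, by less, PSMB10 lie below 0 with overexpression and scrambled shRNA.

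PSMB8 and PSMB9, which the rule leaves out, were in a list of 33 other genes of the pathway, of which 26 were measured. PSMB9 read 7.28, 7.23 and 7.05 with empty vector, 6.37, 6.19 and 6.07 with overexpression, 6.13, 6.11 and 6.30 with scrambled shRNA and 6.87, 6.65 and 6.97 with knockdown. PSMB8 read 8.21, 8.12 and 8.00 with empty vector, 7.52, 7.45 and 7.43 with overexpression, 7.43, 7.34 and 7.25 with scrambled shRNA and 7.89, 7.85 and 7.70 with knockdown. In both genes, as in PSMB10, the empty vector arrays were highest and the knockdown arrays next, with no overlap, and the remaining groups were lowest. PSMB9 fell by 0.97 with overexpression (adjusted p = 0.000184) and rose by 0.65 with knockdown (adjusted p = 0.00154), and PSMB8 fell by 0.64 (adjusted p = 0.000414) and rose by 0.47 (adjusted p = 0.0016). Scrambled shRNA against empty vector was -1.0 for PSMB9 and -0.77 for PSMB8. TAP1, a subunit of the peptide transporter of antigen presentation, fell by 0.37 with overexpression (adjusted p = 0.00368 by limma). It did not pass with knockdown, at -0.04 (adjusted p = 0.727), or between the controls, at -0.17 (adjusted p = 0.0546).

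Of the 14 regulatory particle genes, 5 (35.7%) were called between the controls, near the 31.5% of all genes, 2 (14.3%) with knockdown, near the 14.0% of all genes, and 0 with overexpression. In the ATPase ring, PSMC2 read 12.91, 13.00 and 12.95 with empty vector, 12.80, 12.86 and 12.92 with overexpression, 12.67, 12.64 and 12.50 with scrambled shRNA and 12.84, 12.82 and 12.79 with knockdown. All scrambled shRNA arrays lay below the other 9, replicate 3 the lowest, and knockdown overlapped with overexpression. Scrambled shRNA was lower than empty vector by 0.35 log2 (value -0.35, SE 0.0616, 1.28-fold, adjusted p = 0.00133), and -0.30 without replicate 3. Knockdown against scrambled shRNA rose by 0.22 (1.16-fold, adjusted p = 0.0353), a call that ended without scrambled shRNA replicate 2 (adjusted p = 0.0618) or 3 (0.165 log2, adjusted p = 0.0843), any 1 of the knockdown arrays (0.0743 to 0.101) or overexpression replicate 2 (0.0539). It also ended with each array centred on its median (adjusted p = 0.114) and with the mean of both probe sets (0.0878). The overexpression value was -0.10 (adjusted p = 0.433).

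PSMC4, another ATPase, read 11.26, 11.15 and 11.11 with empty vector, 11.16, 11.07 and 11.09 with overexpression, 11.00, 10.98 and 10.70 with scrambled shRNA and 10.98, 11.13 and 11.04 with knockdown. Scrambled shRNA lay below both transfected groups and overlapped with knockdown. Its control difference of -0.28 (adjusted p = 0.0231) became -0.18 and no call without scrambled shRNA replicate 3 (adjusted p = 0.0632), and also ended as a call without empty vector replicate 1 or 2. PSMC3 is the member in which 1 array decided most. It read between 11.04 and 11.22 on 11 arrays and 10.21 on scrambled shRNA replicate 3. Its knockdown value was 0.27 (adjusted p = 0.406) with that array and -0.05 without it, and neither passed.

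Among the 3 other base genes, which encode scaffolds and a ubiquitin receptor, none passed. PSMD4, a ubiquitin receptor, read 11.89, 11.91 and 11.88 with empty vector, 11.95, 11.91 and 11.98 with overexpression, 11.89, 11.87 and 11.62 with scrambled shRNA and 11.91, 11.87 and 11.85 with knockdown. Only scrambled shRNA replicate 3 stood off the range of the rest. In the overexpression comparison PSMD4 was at 0.05 and PSMD2, a scaffold of the base, at -0.04. For knockdown the values were 0.08 and -0.05, and between the controls -0.10 and -0.06.

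In the lid, the scaffold genes PSMD12 and PSMD11 were lowest with scrambled shRNA. PSMD12 read 11.75, 11.75 and 11.70 with empty vector, 11.55, 11.59 and 11.53 with overexpression, 11.45, 11.43 and 11.24 with scrambled shRNA and 11.59, 11.66 and 11.68 with knockdown. The empty vector arrays were the highest and the scrambled shRNA arrays the lowest, with no overlap between either and any other group. The control difference was -0.36 (SE 0.0642, 1.28-fold, adjusted p = 0.00163), and -0.29 without scrambled shRNA replicate 3. With knockdown PSMD12 rose by 0.27 (1.21-fold, adjusted p = 0.0152), and 0.20 without that array (adjusted p = 0.029), and the call ended without knockdown replicate 3 (adjusted p = 0.0609). The overexpression value was -0.18 (adjusted p = 0.138). The other PSMD12 probe set gave -0.16 between the controls (adjusted p = 0.148) and 0.12 with knockdown (adjusted p = 0.395).

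PSMD11 read 11.34, 11.25 and 11.25 with empty vector, 11.15, 11.11 and 11.22 with overexpression, 10.98, 10.87 and 10.37 with scrambled shRNA and 11.12, 11.08 and 10.99 with knockdown. Every scrambled shRNA array was below all others, and replicate 3 was the lowest by far. The control difference of -0.54 (SE 0.124, 1.46-fold, adjusted p = 0.00634) was -0.36 without that array (adjusted p = 0.00323), while the other probe set of the gene gave -0.09. With knockdown the value was 0.32 (adjusted p = 0.113), and 0.13 without the array. PSMD8, a lid gene needed for joining lid and base, ran the other way: it read 11.29, 11.24 and 11.21 with empty vector, 11.30, 11.26 and 11.27 with overexpression, 11.43, 11.44 and 11.47 with scrambled shRNA and 11.43, 11.41 and 11.38 with knockdown. All 6 lentiviral arrays lay above all 6 transfected ones. Scrambled shRNA was higher than empty vector by 0.20 (1.15-fold, adjusted p = 0.00953), while overexpression (0.03) and knockdown (-0.04) against their own controls did not pass.

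**Figure D3:**
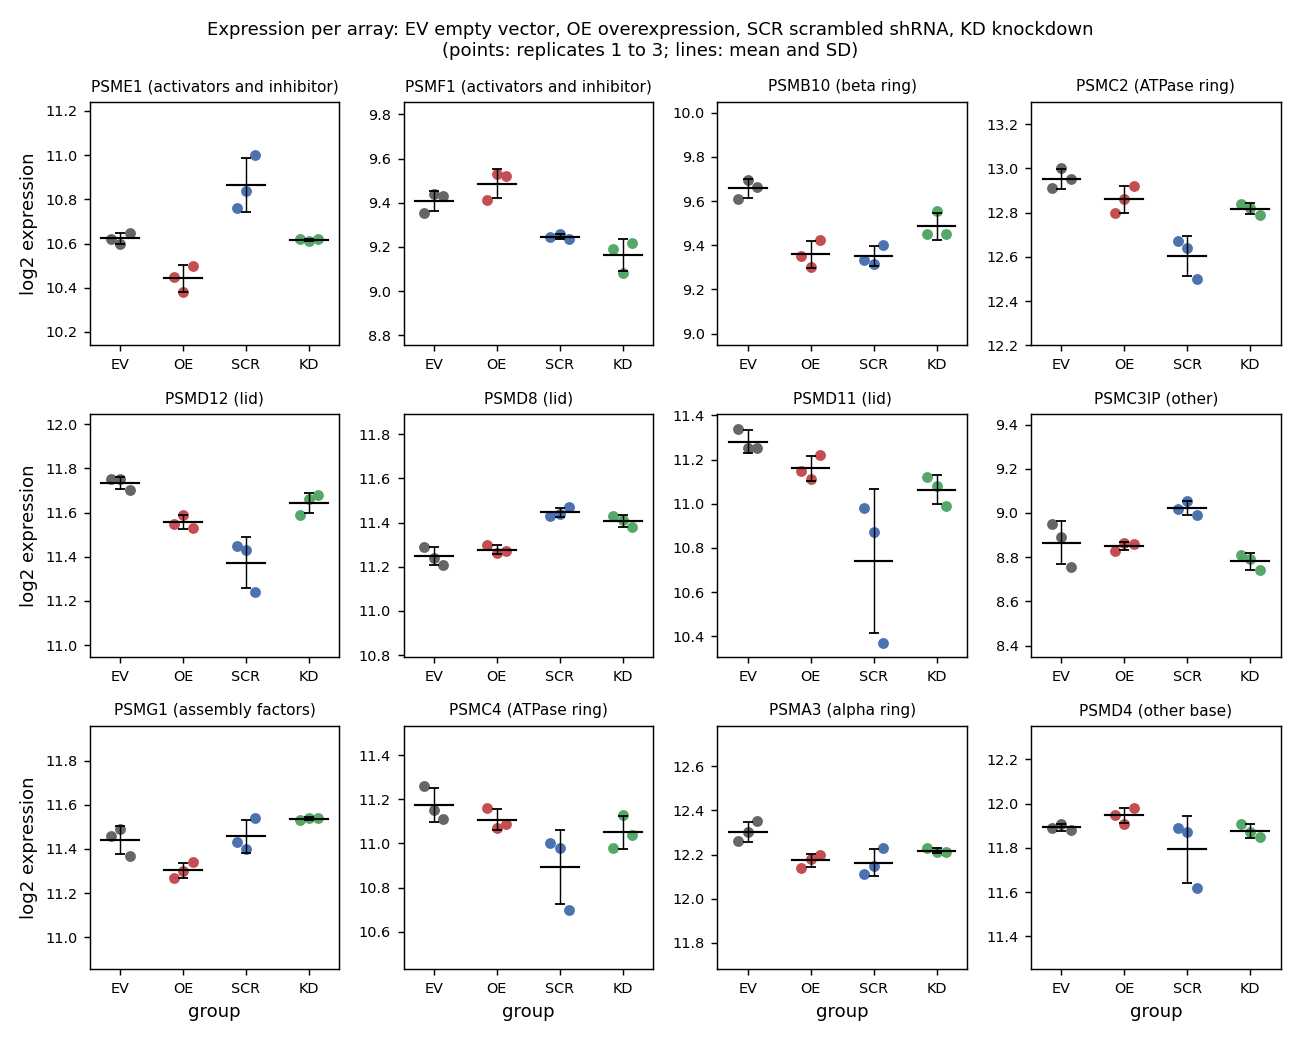
Log2 expression on each array for the 10 members with the lowest p in the test over 4 groups and for the first member of each further class, with group means and SD (3 arrays each) and y axes that all span 1.1 log2. PSMB10 and PSMD12 are highest with empty vector, PSME1 is highest with scrambled shRNA, and PSMD8 is higher in both lentiviral groups.

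The activator gene PSME1 had the smallest p of all members in the F test. It read 10.62, 10.60 and 10.65 with empty vector, 10.45, 10.38 and 10.50 with overexpression, 10.76, 10.84 and 11.00 with scrambled shRNA and 10.62, 10.61 and 10.62 with knockdown. Scrambled shRNA was highest, overexpression lowest, and empty vector and knockdown lay together between them. The knockdown value against scrambled shRNA fell by 0.25 (SE 0.0661, 1.19-fold, adjusted p = 0.0242). That call ended when scrambled shRNA replicate 2 (adjusted p = 0.0511) or 3 (-0.19 log2, 0.0544) or any 1 knockdown array (0.0649 to 0.0679) was left out. Between the controls the difference was 0.25 (adjusted p = 0.0146), and 0.18 without scrambled shRNA replicate 3 (adjusted p = 0.0367), a call that ended without empty vector replicate 2 (0.0529). Overexpression was at -0.18 (adjusted p = 0.147), which did not pass. Its arrays did not overlap those of its control, as for 27.9% of all genes.

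PSMF1, an inhibitor of the core in the test tube, read 9.35, 9.44 and 9.43 with empty vector, 9.41, 9.53 and 9.52 with overexpression, 9.25, 9.26 and 9.24 with scrambled shRNA and 9.19, 9.08 and 9.22 with knockdown. Both lentiviral groups lay below both transfected groups, the reverse of PSMD8. It passed the F test (adjusted p = 0.00468) but none of the single comparisons, with 0.08 for overexpression, -0.08 for knockdown and -0.16 between the controls (adjusted p = 0.0567). Its second probe set gave 0.07 between the controls and did not pass the F test (adjusted p = 0.421). PSME3, a nuclear activator of the core, was at -0.24 between the controls (adjusted p = 0.0479), and 8 of the 12 fits that each leave out 1 array lost the call, with adjusted p-values up to 0.169. Its 3 other probe sets, adjusted over all probe sets, gave -0.22, -0.34 and -0.47 between the controls (adjusted p = 0.0126, 0.00504 and 0.0025), and with overexpression 2 of them passed, at -0.22 (adjusted p = 0.0469) and -0.29 (0.0447), where the one used was at -0.10. All 3 also passed for the difference of the effects, at -0.43, -0.54 and -0.49 (adjusted p = 0.00329, 0.00418 and 0.0178), and 1 passed with knockdown, at 0.21 (0.0359). All 4 probe sets of PSME3 thus had the same sign in each comparison. PSME4, another nuclear activator, was not called, and its 3 probe sets disagreed in sign between the controls, at -0.03, 0.25 (adjusted p = 0.0138) and -0.79 (0.0096). Of the 24 probe sets of members that were not the one used, 8 passed between the controls, those of PSME3 and PSME4 and 1 each of PSMA2 (-0.27), PSMD1 (-0.23) and PSMD9 (-0.28). For all genes, with 1 probe set each, the share called there was 31.5%. The sign was opposite to that of the one used for 4 of the 24 with overexpression, 7 with knockdown and 8 between the controls. Between the controls the median distance from the one used was 0.153 log2.

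None of the 5 assembly factors passed in a comparison of 2 groups. PSMG1, a chaperone of the alpha ring, read 11.46, 11.49 and 11.37 with empty vector, 11.27, 11.30 and 11.34 with overexpression, 11.43, 11.40 and 11.54 with scrambled shRNA and 11.53, 11.54 and 11.54 with knockdown. Overexpression was the lowest group, below all other arrays. PSMG1 passed the F test (adjusted p = 0.0404), and its overexpression value was -0.14 (adjusted p = 0.205). PSMD5, a chaperone of the base, was at -0.16 with overexpression and 0.16 with knockdown, and PSMD10, another base chaperone, at 0.20 with knockdown. Between the controls PSMD5 was at -0.19 and PSMG2, the partner of PSMG1, at 0.11.

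PSMC3IP, which is no proteasome subunit, read 8.95, 8.89 and 8.76 with empty vector, 8.83, 8.86 and 8.86 with overexpression, 9.02, 9.05 and 8.99 with scrambled shRNA and 8.81, 8.79 and 8.74 with knockdown. Scrambled shRNA was above the other 9 arrays. With knockdown it fell by 0.24 (SE 0.0598, 1.18-fold, adjusted p = 0.0189), and the call ended without scrambled shRNA replicate 2 (0.0647) or knockdown replicate 3 (0.0743). It was at -0.02 with overexpression and 0.16 between the controls. PSME3IP1 was at -0.08, 0.09 and -0.04 in the same comparisons and was not called.

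**Figure D4:**
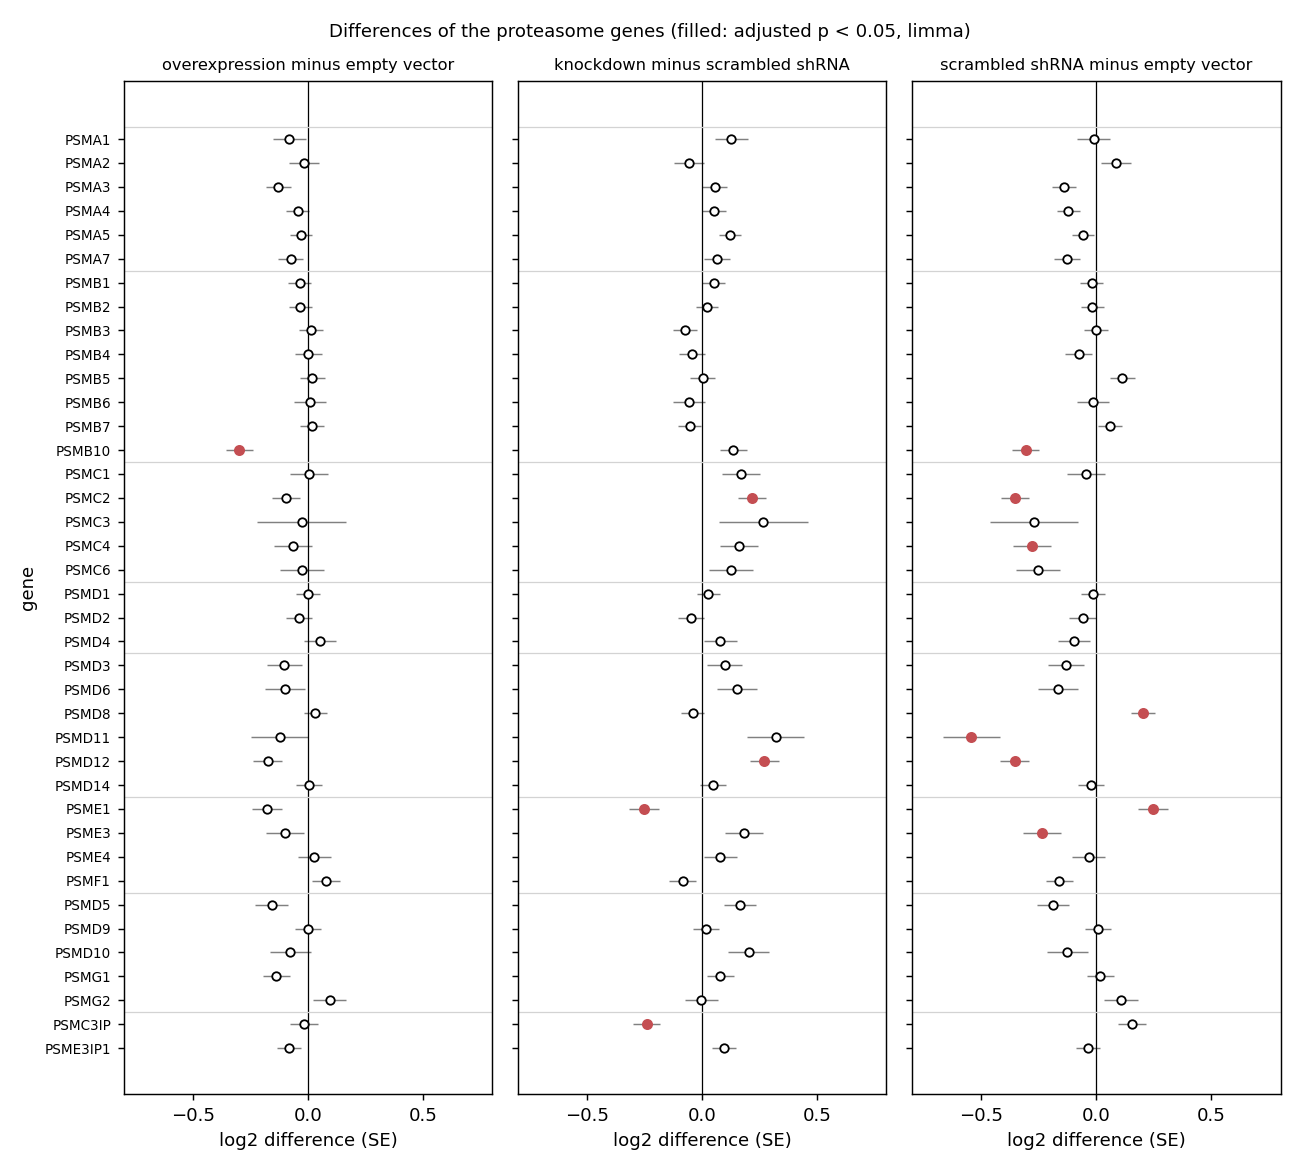
Log2 difference with its SE for each of the 39 genes in the comparisons of overexpression with empty vector, knockdown with scrambled shRNA, and scrambled shRNA with empty vector, 3 arrays per group; filled points passed an adjusted p of 0.05. There are 1, 4 and 8 filled points, and most open points lie within 0.3 of 0.

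For the members that were not called, the 95% intervals say how large a difference these arrays leave possible. With overexpression 33 of the 38 intervals lay within 0.3 log2 either way, and the widest, for PSMC3, ran from -0.446 to 0.393. For knockdown it was 26 of 35, with a bound of up to 0.686 for PSMC3, and between the controls 26 of 31, with a bound down to -0.69 for PSMC3. Among the uncalled members with overexpression PSMD12 had the smallest adjusted p, and next to it and PSMC2 in their classes came the lid gene PSMD3 at -0.10 and the ATPase gene PSMC4 at -0.06.

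Over all 39 members the median difference was -0.03 log2 with overexpression, 0.07 with knockdown and -0.06 between the controls, where the medians of all genes were 0.00133, -0.00911 and 0.0172. With overexpression 13 members were higher and 26 lower, with knockdown 28 higher and 11 lower, and between the controls 9 higher and 30 lower. The last pair shares the scrambled shRNA arrays. Those arrays held the lowest group mean for 21 of 39 members (53.8%), where scrambled shRNA was lowest for 29.4% of all genes. Without scrambled shRNA replicate 3 it was lowest for 19 of 39 (48.7%), against 29.8% of all genes, and 27 members were higher and 12 lower with knockdown and 12 higher and 27 lower between the controls. By class, scrambled shRNA was lowest for 12 of 14 regulatory particle genes and 5 of 14 core genes with that array, and for 7 and 9 of 14 without it.

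The difference of the effects, the overexpression effect minus the knockdown effect, tests whether raising and lowering CXXC5 moved a gene differently. It was called for 4 members, where 20.4% of all genes were called. All 4 were lower, PSMB10, PSMC2, PSMD12 and PSMD5, where 12.3% of all genes were called lower and 8.15% higher. PSMD12 was at -0.45 (adjusted p = 0.00438) and PSMB10 at -0.43 (adjusted p = 0.00293). The other PSMD12 probe set was at -0.29 (adjusted p = 0.097 by limma over all probe sets), which did not pass. No fit that left out 1 array ended the PSMD12 or the PSMB10 call. PSMC2 was at -0.31 (adjusted p = 0.0243), lost in 4 of 12 such fits, those without empty vector replicate 2, overexpression replicate 1 or 2, or knockdown replicate 1. PSMD5 was at -0.32 (adjusted p = 0.0395), lost in 9 of 12. Among classes with no call, PSMA3 was at -0.18 and PSMA5 at -0.15, PSME3 at -0.28 and PSMF1 at 0.16, PSMD1 and PSMD4 both at -0.03, and PSMC3IP at 0.22 and PSME3IP1 at -0.18.

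The core and the regulatory particle, each with 14 measured genes, had nearly equal median differences with overexpression, and their medians lay apart in the other comparisons only with scrambled shRNA replicate 3 included. With overexpression the median difference was -0.0314 log2 for the core and -0.0336 for the regulatory particle, with 5 of 14 genes higher in each. With knockdown the medians were 0.0364 and 0.138, with 9 and 12 of 14 higher, and between the controls -0.0188 and -0.15, with 3 and 1 of 14 higher. For the difference of the effects they were -0.0702 and -0.182. Without scrambled shRNA replicate 3 the knockdown medians were 0.0376 and 0.0364, with 10 of 14 higher in each, those between the controls -0.0547 and -0.0603, with 4 of 14 higher in each, and those of the difference of the effects -0.0764 and -0.0534. These medians are descriptions of chosen genes and carry no test.

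**Figure D5:**
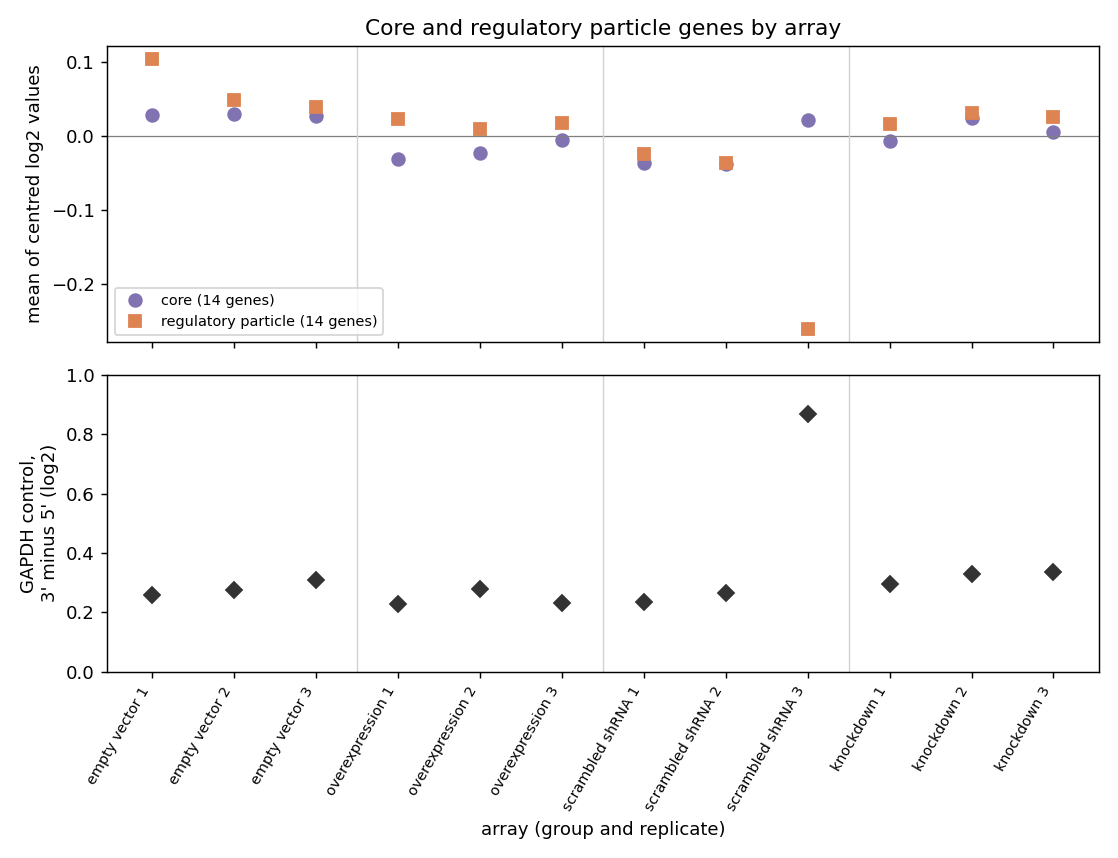
Upper panel: mean over the 14 core and the 14 regulatory particle genes of log2 values centred on each gene's mean over 12 arrays, by array. Lower panel: 3′ minus 5′ difference of the GAPDH control on the same arrays; on scrambled shRNA replicate 3 the regulatory particle lies at -0.26, the core at 0.022 and the control at 0.87.

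Array by array, the core minus the regulatory particle was 0.282 log2 on scrambled shRNA replicate 3 and between -0.0748 and -0.00141 on the other 11 arrays. On that array the regulatory particle lay at -0.26, where the other 11 arrays ranged from -0.0356 to 0.104, and the core lay at 0.022. Set against the mean of scrambled shRNA replicates 1 and 2, replicate 3 was more than 0.2 log2 lower for 7 of 14 regulatory particle genes, 1 of 14 core genes (PSMA1) and 12.5% of all genes. The regulatory particle genes were PSMC3 at -0.947, PSMD11 at -0.56, PSMD6 at -0.363 and PSMC6 at -0.352. The others were PSMC1 at -0.3, PSMC4 at -0.292 and PSMD4 at -0.261. Of the 5 assembly factors 2 also passed this cut, PSMD10 at -0.37 and PSMG2 at -0.251. Higher on replicate 3 were the lid gene PSMD3 at 0.215 and the core gene PSMB6 at 0.247. The median was -0.23 over the regulatory particle and 0.0712 over the core. On each of the other 11 arrays, 0 core or regulatory particle genes lay more than 0.2 log2 below the rest of their group. The share of all genes that did was 5.93% (knockdown replicate 3) to 12.8% (knockdown replicate 1) on those arrays. For scrambled shRNA replicates 1 and 2 the rest of the group includes replicate 3, so genes low on replicate 3 could hardly count there. Other probe sets of the same genes could differ: PSMD11 was at -0.56 with one and -0.0806 with the other, and the 4 probe sets of PSMD4 ranged from -0.434 to 0.00474. The high 3′ to 5′ difference of this array moved with these values, and its part in them was not tested.

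Without that array, 2 members were called with knockdown (PSMD12 and PSMC3IP), where 12.3% of all genes were, and 8 between the controls, where 26.6% were. The 8 were PSMB10, PSMC2, PSMD8, PSMD11, PSMD12 and PSME1, called with the array too, and PSMA3 and PSMG2, while PSMC4 and PSME3 were no longer called. For the difference of the effects 5 were called (PSMA3, PSMB10, PSMC2, PSMD12 and PSMG1), where 20.2% of all genes were.

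Of the 26 other pathway genes measured, 4 changed with overexpression, 15.4% against 6.98% of all genes, and all 4 were lower. They were PSMB8, PSMB9, TAP1 and TAP2, the genes of the antigen-processing branch, and 0 of the other 22 changed. The list was drawn up with earlier results of these data known, so its shares only describe these 26 genes. With knockdown 4 were higher and 1 lower (19.2% called, against 14.0% of all genes), and between the controls 2 were higher and 7 lower (34.6%, near the 31.5% of all genes). UCHL5, a deubiquitinase that binds the base, rose by 0.45 with knockdown (SE 0.0644, adjusted p = 0.000835) and was at -0.59 between the controls and -0.21 with overexpression (adjusted p = 0.0702). USP14, another deubiquitinase of the base, rose by 0.21 with knockdown (adjusted p = 0.036, lost in 5 of 12 fits without 1 array) and was at -0.35 between the controls (adjusted p = 0.00101). ADRM1, the ubiquitin receptor that holds UCHL5, was at -0.33 between the controls (adjusted p = 0.000942) and at 0.12 with knockdown, which did not pass. Both deubiquitinases thus had their lowest values with scrambled shRNA, as PSMC2, PSMD11 and PSMD12 did, in comparisons that share those arrays.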

How the data were processed

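Expression was measured on 12 Affymetrix 3′ arrays, 1 per sample. The authors deposited 1 log2 value per probe set, made with Affymetrix Expression Console per the submitters' processing notes; its version and method were not given in the sources used here, and the log2 scale was inferred from the range of 2.07 to 14.4. Array medians were 6.65 to 6.71. For arrays there is no depth, and their number limits the precision. Of 22277 probe sets, 62 controls were left out; 19064 had 1 symbol, 1043 several and 2108 none, and 19052 matched RefSeq by gene ID with 0 symbols changed. Each gene kept its probe set with the highest mean (11963 genes). Groups came from sample titles.

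limma 3.58.1 in R 4.3.3 fitted 1 coefficient per group over 12 arrays (8 residual degrees of freedom, default prior). Tests were two-sided with Benjamini-Hochberg adjustment over all genes at 0.05, and the fit was tested on simulated data. Alternatives covered normalization, low values, probe sets, prior, weights, block, threshold and left-out arrays. The members and lists were chosen with earlier results of these data known. Named were all members called in a comparison, or the 2 with the smallest p in a class without a call. Array values were given for the 10 members with the smallest p over 4 groups and the first of each class; PSMC3, PSMB5, PSMB8 and PSMB9 were added after their values were seen. Figures used matplotlib 3.10.9.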

Additional observations from a re-analysis of the deposited data

How the results depend on the processing

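The count of members called with overexpression (1) was 2 with the mean of all probe sets, and 3 with a trended robust prior and with array weights, which gave scrambled shRNA replicate 3 a weight of 0.296. For knockdown (4) it was 0 when the 6 arrays of the comparison were fitted alone and 0 at an adjusted p of 0.01. Between the controls (8) it was 14 without the lowest 40% of genes, 4 with 6 arrays, 14 with the trended prior, 15 with weights, 5 at 0.01 and 14 at 0.1. The difference of the effects (4) gave 7 without the lowest 40%, 8 with the trended prior, 7 with weights, 2 at 0.01 and 7 at 0.1, and the F test (9) gave 15 with the trended prior and 5 at 0.01. These counts alone do not say whether members were called more or less often than all genes under those settings. Leaving out 1 array at a time gave 0 to 2 with overexpression (0 without empty vector or overexpression replicate 2, and 2 without scrambled shRNA replicate 3), 0 to 5 with knockdown (0 without knockdown replicate 3, 1 without scrambled shRNA replicate 2, 2 without knockdown replicate 1 or 2 or scrambled shRNA replicate 3), 5 to 9 between the controls (5 without empty vector replicate 2), 2 to 5 for the difference of the effects (2 without empty vector or overexpression replicate 2 or knockdown replicate 1) and 7 to 9 for the F test. The share of all genes called moved by over 1.5 times without the lowest 40% of genes (15.3%, 28.8%, 37.3% and 51.5% for overexpression, knockdown, the difference of the effects and the F test) and at an adjusted p of 0.01 (2.73%, 6.55%, 11.2% and 16.4%, and 17.4% between the controls). It also did with 6 arrays for knockdown (8.51%), and for overexpression with weights (13.0%), at 0.1 (10.8%) and without empty vector replicate 2 (3.18%) or overexpression replicate 2 (3.91%) or 3 (3.93%). Core minus regulatory particle between the controls (0.131) was 0.0283 with array weights. Without 1 array it ranged from -0.0141 to 0.0313 with overexpression, -0.163 to 0.00116 with knockdown, 0.00561 to 0.168 between the controls and -0.023 to 0.171 for the difference of the effects. The 34 named results cover members and other pathway genes (PSMB8, PSMB9, TAP1, UCHL5, ADRM1 and USP14). Of their 739 values under alternatives, 663 kept their direction and their side of the threshold, 76 lost the call and 0 reversed. PSMB8, PSMB9, UCHL5 and ADRM1 lost no call, so members kept theirs less often than the pooled count says. Many of these values could not reverse. Another threshold, the block, or leaving out an array from outside the comparison does not move a difference. At an adjusted p of 0.1 no call could be lost. The cause of the lost calls was not tested. Deviations of arrays with the same replicate number correlated at -0.115 to 0.395, over 0.1 in 10 of 18 pairs, and 8 of 12 arrays correlated best with their own number. This is a hint of a shared source from the data, not from the design; since the labels give no pairing and not every pair was over 0.1, the fit without a block was kept. With a replicate block the counts were 1, 4, 9, 4 and 8. The block cannot move group differences in this balanced design, so medians with it are no check. With 3 arrays a group and no scanner files, background and detection could not be examined.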
